A study of Mus musculus with 7 samples.

Results

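The replication-dependent histone genes encode the bulk of the histone proteins that package newly made DNA. Of these genes, 64 were measured by bulk RNA sequencing in mouse germinal centre B cells labelled MIZ1KO or Control by genotype. They were taken as all GENCODE vM21 protein-coding genes whose symbols start with Hist1h, Hist2h, Hist3h or Hist4h and that had counts in any library. The rule uses names and detection, and it was set with earlier results of these data known. The annotation lists 67 genes by this rule, 65 of these were matched by identifier to the count table, and Hist1h2aa was listed at 0 in every library. The 64 stand among 19862 identifiers with counts, of 48795 identifiers in all. By class they are 6 genes for the linker histone H1, 17 for H2A, 16 for H2B, 12 for H3 and 13 for H4. By cluster, 51 lie in Hist1 on chromosome 13, 10 in Hist2 on chromosome 3, 2 in Hist3 on chromosome 11 and 1, Hist4h4, on chromosome 6 (GRCm38).

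The cells were light zone germinal centre B cells sorted from mouse spleens on day 10 after sheep red blood cells had been injected into a vein as the antigen, in 3 libraries labelled MIZ1KO and 4 labelled Control. The titles add MizFF to the MIZ1KO samples and eYFP to the Control samples. Neither is explained further. The sources used here do not state the strain, the age or any Cre driver. Whether every library is a separate animal is not stated, and the spread that the p-values rest on may be technical in part.

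Histone proteins are made in step with DNA replication, and their mRNAs accumulate in S phase and are destroyed when replication ends. H2A, H2B, H3 and H4 form the nucleosome core, and H1 binds the DNA between cores. Most of these mRNAs have no introns and no poly(A) tail. They end just past a short stem-loop, which is bound by the stem-loop binding protein SLBP and cut with the help of the U7 small nuclear ribonucleoprotein. Some histone genes also give a longer transcript that passes the stem-loop and ends in a poly(A) tail. Germinal centre B cells divide fast, mostly in the dark zone, and light zone cells include those about to return to the cycle. PolyA RNA is the molecule named in the labels, so the counts below need not stand in a fixed ratio to the amount of histone mRNA in the cells.

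The stem-loop is shown because it sets these mRNAs apart from others. In the GENCODE vM21 transcripts on GRCm38, a perfect stem of 6 base pairs around a loop of 4 bases near the end of the coding sequence was found in 42 of the 64 genes. Capitals mark the stem-loop in the following stretches of RNA-sense DNA, which carry 5 bases on either side:
Hist2h3c2, chr3:96238480-96238505, minus strand: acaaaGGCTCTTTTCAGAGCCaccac
Hist1h2bg, chr13:23571838-23571863, plus strand: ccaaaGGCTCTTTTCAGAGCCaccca
Hist1h1e, chr13:23621777-23621802, minus strand: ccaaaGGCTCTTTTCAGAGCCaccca
Hist1h2bk, chr13:22036295-22036320, plus strand: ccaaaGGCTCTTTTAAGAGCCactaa
Hist2h2ac, chr3:96220413-96220438, minus strand: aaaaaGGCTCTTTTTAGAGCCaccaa
Hist1h4h, chr13:23531453-23531478, plus strand: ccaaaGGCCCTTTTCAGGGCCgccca
Hist1h4j, chr13:21735432-21735457, plus strand: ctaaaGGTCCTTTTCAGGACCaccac
The form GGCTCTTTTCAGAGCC stood in 24 genes of H1, H2A, H2B and H3, and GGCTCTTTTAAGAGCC in 6. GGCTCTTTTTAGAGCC was found in Hist2h2ac alone. The 11 H4 genes with a stem-loop had other stems: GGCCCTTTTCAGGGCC in 7, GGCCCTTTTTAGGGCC in 2 and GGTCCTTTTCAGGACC in 2. The annotated models of 16 more genes end at or near the stop codon and held no such stem-loop, and the models of 6 genes run on without one.

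Library totals lay between 6896673 and 9482453 estimated counts, and ribosomal RNA took 50.6% ± 4.98 of them in MIZ1KO (± SD over 3 libraries) and 50.7% ± 1.8 in Control (± SD over 4). The counts outside ribosomal RNA ranged from 3087992 to 5085019. The B cell markers Cd79a, Cd79b, Ms4a1 and Pax5 and the germinal centre marker Bcl6 were present in both groups. CPM stands for counts per 1000000 of all counts, ribosomal RNA included, with library sizes scaled by TMM. Cd79a, a subunit of the B cell receptor, was higher in MIZ1KO, at 668 CPM in MIZ1KO and 367 CPM in Control (log2 fold change 0.86 ± 0.22, adjusted p = 0.0333, edgeR). The germinal centre marker Rgs13, a regulator of G protein signalling, was lower, at 66.9 CPM in MIZ1KO and 167 CPM in Control (-1.32 ± 0.32, adjusted p = 0.0229, edgeR), with overlap. Of 7 light zone and 6 dark zone markers tested, 0 were called. Log2 fold changes above 0 were found in 2 of the 7 light zone markers (median -0.04) and 5 of the 6 dark zone markers (median 0.24). Over all genes, 47.7% lay above 0. The part of these differences in the histone result was not tested. Zbtb17, which encodes MIZ1, was measured at 4.44 CPM in MIZ1KO and 4.18 CPM in Control. Its log2 fold change was 0.03 ± 0.46 (SE; adjusted p = 0.975, edgeR), and counts over the whole gene do not check a deletion of part of it. Over all 11618 genes tested, 221 were higher and 471 lower in MIZ1KO.

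Summed over the 64 genes, histone transcripts took 0.518%, 0.537% and 0.627% of all counts other than ribosomal RNA in the MIZ1KO libraries, against 0.462%, 0.354%, 0.249% and 0.342% in the Control libraries. All 3 MIZ1KO libraries lay above all 4 Control libraries, although Control replicate 1 came close to MIZ1KO replicate 1. The means were 0.561% ± 0.0581 in MIZ1KO (± SD over 3 libraries) and 0.352% ± 0.0869 in Control (± SD over 4), a ratio of 1.59 and a log2 ratio of 0.67. As a share of protein-coding counts the ratio was 1.54, and without Hist1h1e, the gene with the most counts, it was 1.57. Each sum rested on 8513 to 27332 counts. In bulk samples, a larger share of cells in S phase and more histone mRNA per such cell cannot be told apart.

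By class, H3 stood furthest apart. The H3 genes took 0.0798%, 0.0766% and 0.107% of the non-ribosomal counts in MIZ1KO, against 0.0571%, 0.0419%, 0.0277% and 0.04% in Control, a ratio of 2.1. The ratios were 1.7 for H2A, 1.5 for H2B and 1.48 for H1, each with every MIZ1KO library above every Control library. For H4 the ratio was 1.48 with overlap, since MIZ1KO replicate 1 at 0.0376% lay below Control replicate 1 at 0.0451%. Within the histone pool, H3 took 15.6% ± 1.4 of the counts in MIZ1KO (± SD over 3 libraries) and 11.8% ± 0.513 in Control (± SD over 4), without overlap. The shares of H1, H2A, H2B and H4 in the pool overlapped between the groups.

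**Figure D1:**
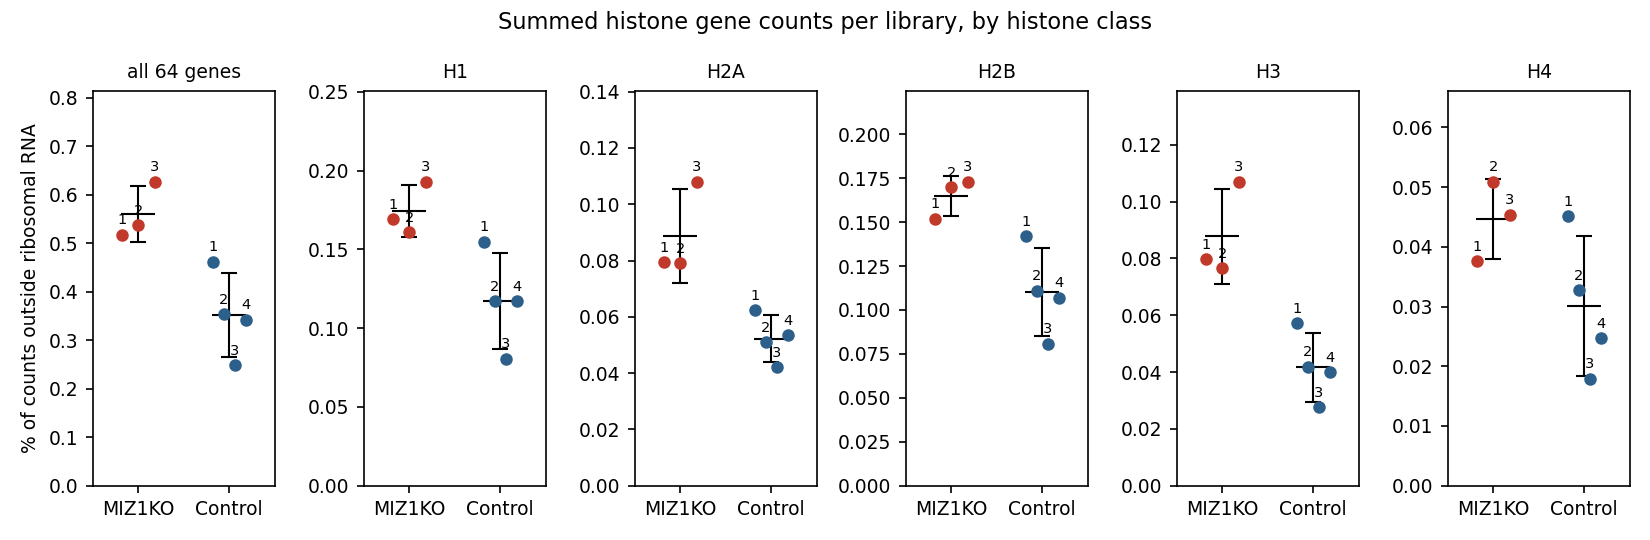
Summed counts of all 64 histone genes and of each class, as a percentage of the counts outside ribosomal RNA (vertical axis, from 0, scaled for each panel), in 3 MIZ1KO (red) and 4 Control libraries (blue). Points are libraries with their replicate numbers, the long ticks are means and the bars are SD; the groups do not overlap except in H4.

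Gene by gene, 57 of the 64 passed the filter on low counts and were tested. Of these, 8 were higher in MIZ1KO at an adjusted p under 0.05 (edgeR's quasi-likelihood test), 0 were lower and 49 were not called. The called share of 14.0% stood beside 1.9% of all genes tested that were called higher, 4.05% called lower and 5.96% in either direction. Of protein-coding genes, 2.08% were called higher and 4.14% in either direction. Of the tested histone genes, 54 of 57 had a log2 fold change above 0, against 47.7% of all genes and 52.5% of protein-coding genes. Their median log2 fold change was 0.66, beside -0.03 over all genes and 0.03 over protein-coding genes. At an unadjusted p under 0.05, 30 were higher (9.92% of all genes) and 0 were lower (14.7% of all genes). In 19 of 57 every MIZ1KO library lay above every Control library (8.77% of all genes), and in 0 below (10.8% of all genes, 7.93% of protein-coding genes). The 7 genes that did not pass the filter were Hist1h1t, Hist1h2ad, Hist1h2ba, Hist1h4k, Hist1h4m, Hist2h3c1 and Hist3h2ba.

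The count of called genes changed with single libraries and with offsets for GC content and transcript length. It was 0 of 57 without MIZ1KO replicate 1 and 21 without Control replicate 1, the Control library with the highest histone share. It was 2 without Control replicate 2, 3 without MIZ1KO replicate 3 and 3 without Control replicate 4. The median log2 fold change stayed between 0.55 and 0.86 in these fits. With the offsets, fitted in each library, 5 genes were called, 45 of 57 lay above 0 and the median was 0.37.

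**Figure D2:**
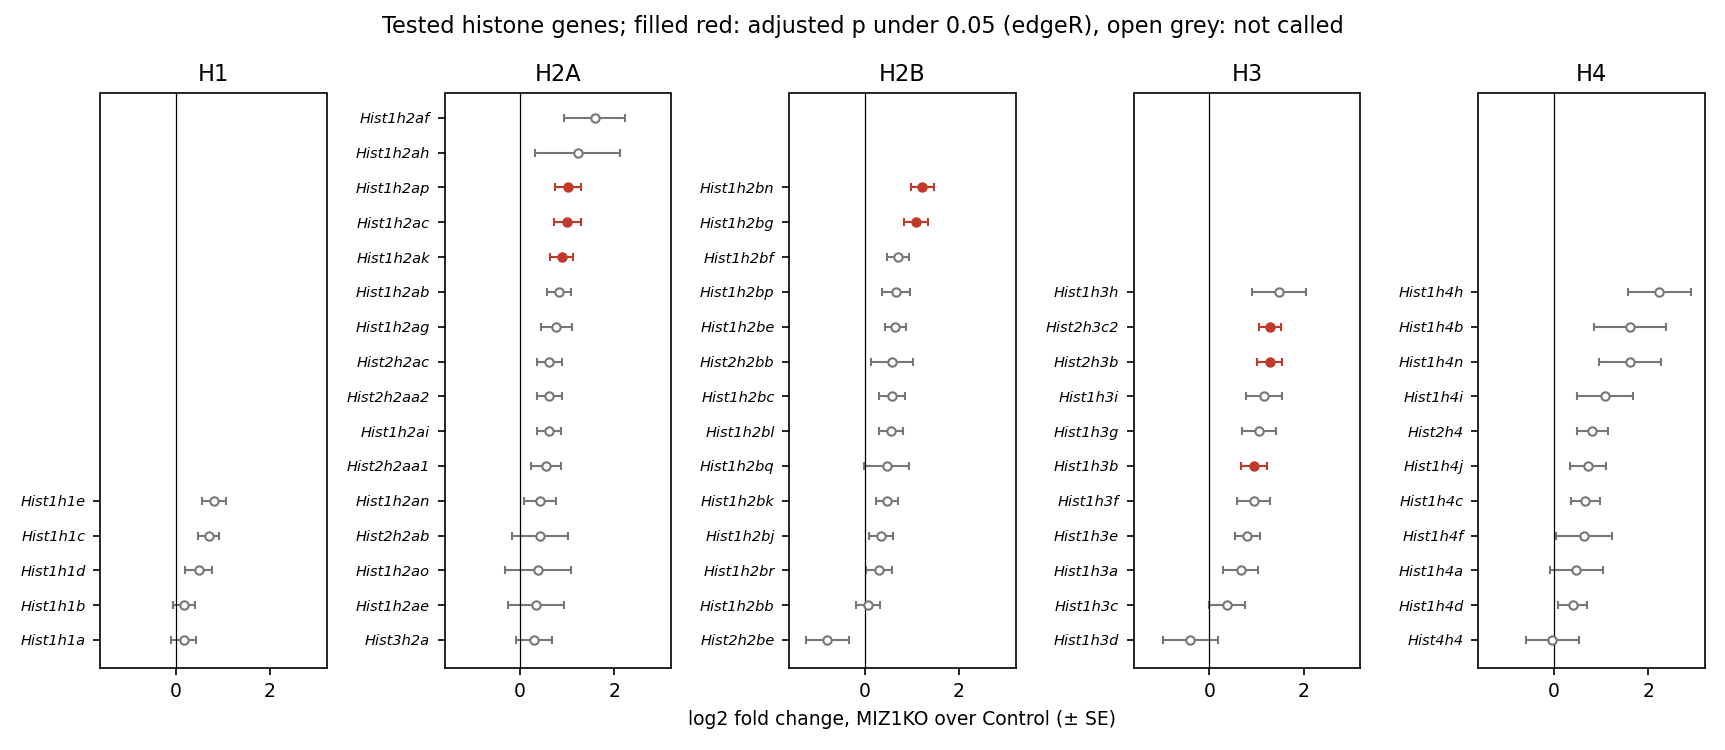
Log2 fold change of MIZ1KO over Control with its SE (horizontal axis) for each of the 57 tested histone genes, in a panel per class. The 8 filled red points passed an adjusted p of 0.05, the open points did not, and 3 genes (Hist2h2be, Hist1h3d and Hist4h4) lie left of 0.

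The H3 genes, which encode the core histone whose tail carries many of the best known chromatin marks, had 3 of 11 tested genes higher, 0 lower and a median log2 fold change of 0.95. Hist2h3c2 (ENSMUSG00000081058, chromosome 3 from 96238108 to 96239127) was measured at 77.5, 72.3 and 98.1 CPM in MIZ1KO, against 48.1, 34.6, 21.9 and 30.7 CPM in Control. Every MIZ1KO library stood above every Control library, and the log2 fold change was 1.29 ± 0.24 (SE; adjusted p = 0.0110). Hist2h3b (ENSMUSG00000074403, chromosome 3 from 96268654 to 96269141), in the same cluster, was measured at 127, 120.0 and 157 CPM in MIZ1KO and at 85, 49.4, 28.7 and 58.5 CPM in Control. The groups did not overlap, with a log2 fold change of 1.28 ± 0.27 (adjusted p = 0.0150). Hist1h3b, in the larger cluster on chromosome 13, had 56.3, 55.3 and 79.2 CPM in MIZ1KO, against 49.3, 36.6, 20 and 25.6 CPM in Control. Its log2 fold change was 0.95 ± 0.27 (adjusted p = 0.0467). This call held in 2 of 7 fits without 1 library and in 6 of 12 other settings. That of Hist2h3c2 held in 6 of 7 and 11 of 12, and that of Hist2h3b in 5 of 7 and 10 of 12.

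Both tested H3 genes of the Hist2 cluster were called, against 1 of the 9 tested in Hist1. Summed, the Hist2 H3 genes took 0.0439% ± 0.00677 of the non-ribosomal counts in MIZ1KO and 0.018% ± 0.00549 in Control, a ratio of 2.44. The Hist1 H3 genes took 0.0438% ± 0.01 in MIZ1KO and 0.0237% ± 0.00681 in Control, a ratio of 1.85. The difference between the clusters was not tested. Hist2h3c1 has a coding sequence identical to that of Hist2h3c2, was nearly without counts and was not tested; summed with Hist2h3c2 it gave 77.5, 73.6 and 98.1 CPM in MIZ1KO, against 48.1, 37.1, 21.9 and 30.7 CPM in Control. Among the H3 genes that were not called, Hist1h3g had 1.06 ± 0.36, Hist1h3i 1.16 ± 0.38 and Hist1h3h 1.48 ± 0.58 on the log2 scale. Hist1h3d was the H3 gene with a value below 0, at -0.40 ± 0.58, with 2.44, 1.31 and 8.07 CPM in MIZ1KO and 5.89, 2.10, 3.36 and 6.46 CPM in Control.

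The H2A genes had 3 of 16 tested genes higher, 0 lower, all 16 above 0 and a median of 0.62. Hist1h2ak had the highest level per length of the H2A genes, at 312 CPM per kilobase in MIZ1KO and 169 in Control. It was measured at 109, 119 and 140.0 CPM in MIZ1KO, against 96.8, 66.4, 42.1 and 60.8 CPM in Control, with a log2 fold change of 0.88 ± 0.24 (adjusted p = 0.0370). Hist1h2ap had 56.6, 36.4 and 70.3 CPM in MIZ1KO, against 38.4, 24.6, 25.3 and 19.4 CPM in Control. It was called at 1.01 ± 0.27 (adjusted p = 0.0362), although MIZ1KO replicate 2 lay below Control replicate 1. Its coding sequence is identical to that of Hist1h2ao, and the sum of both gave 57.8, 39.4 and 77.2 CPM in MIZ1KO and 41.0, 27.3, 25.3 and 24.0 CPM in Control. Hist1h2ac, whose model runs 2010 bases past its stem-loop, had 24.3, 19.8 and 33.5 CPM in MIZ1KO, against 13.6, 14.0, 9.66 and 13.8 CPM in Control. Its log2 fold change was 1.00 ± 0.28 (adjusted p = 0.0432), without overlap. The call of Hist1h2ac held in 2 of 7 fits without 1 library and in 7 of 12 other settings. That of Hist1h2ak held in 2 of 7 and 9 of 12, and that of Hist1h2ap in 3 of 7 and 8 of 12. Hist1h2af reached 1.58 ± 0.64 without a call, at 1.15 to 6.73 CPM in MIZ1KO and 0.773 to 2.08 CPM in Control.

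The H2B genes, whose products pair with H2A in the nucleosome, had 2 of 14 tested genes higher, 0 lower and a median of 0.57. Hist1h2bn was measured at 51.9, 48.2 and 68.2 CPM in MIZ1KO, against 31.6, 22.1, 19.1 and 23.0 CPM in Control. The log2 fold change was 1.22 ± 0.24 (adjusted p = 0.0126), and the lowest MIZ1KO library lay well above the highest Control library. Hist1h2bg had 85.2, 109 and 126 CPM in MIZ1KO, against 75.4, 41.4, 33.6 and 50.4 CPM in Control, with a log2 fold change of 1.09 ± 0.25 (adjusted p = 0.0198). The call of Hist1h2bn held in 6 of 7 fits without 1 library and in 10 of 12 other settings. That of Hist1h2bg held in 3 of 7 and 12 of 12. The 2 H2B genes with the highest levels per length, Hist1h2bl at 468 CPM per kilobase in MIZ1KO and 318 in Control and Hist1h2bk at 412 in MIZ1KO and 296 in Control, were not called, at 0.56 ± 0.25 and 0.47 ± 0.24. Hist1h2bb, at 44.8 ± 8.12 CPM in MIZ1KO (± SD over 3 libraries) and 42.7 ± 12.3 CPM in Control (± SD over 4), had a log2 fold change of 0.07 ± 0.25.

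Hist2h2be had the lowest log2 fold change of all tested histone genes, -0.79 ± 0.45 (adjusted p = 0.287), and was not called. It was measured at 7.29, 6.48 and 3.85 CPM in MIZ1KO, against 5.50, 19.4, 6.16 and 11.3 CPM in Control, so the groups overlapped. Its model has a 3′ UTR of 2192 bases with 2 AATAAA signals and without a stem-loop. Hist2h2ac, its divergent H2A neighbour 239 bases away, had 0.62 ± 0.26. Hist2h2be counts per Hist2h2ac count were 0.164, 0.141 and 0.0491 in MIZ1KO and 0.129, 0.43, 0.236 and 0.353 in Control, with overlap.

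The H1 genes had 0 of 5 tested genes called and a median of 0.49. Hist1h1e had the most counts of all histone genes, with 440.0 ± 47.7 CPM in MIZ1KO (± SD over 3 libraries) and 251 ± 90.8 CPM in Control (± SD over 4). The groups did not overlap, and the log2 fold change of 0.81 ± 0.26 missed the threshold (adjusted p = 0.0714); with the offsets for GC content and length it was 0.81 ± 0.19 and passed (adjusted p = 0.0336). Hist1h1c had 110.0, 91.1 and 142 CPM in MIZ1KO, against 91.0, 66.0, 52.4 and 71.0 CPM in Control, and 0.70 ± 0.22 (adjusted p = 0.0654). Hist1h1b, at 189 ± 23.6 CPM in MIZ1KO and 167 ± 48.9 CPM in Control, and Hist1h1a, at 57.5 ± 6.13 CPM in MIZ1KO and 51.1 ± 21.3 CPM in Control, had log2 fold changes of 0.18 ± 0.23 and 0.17 ± 0.27.

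The H4 genes, all of which encode a core histone that has almost no variants, had 0 of 11 tested genes called and a median of 0.73. Hist1h4d held most of the H4 counts, with 113, 173 and 114 CPM in MIZ1KO and 172, 108, 49.5 and 75.5 CPM in Control. The groups overlapped and its log2 fold change was 0.40 ± 0.31 (adjusted p = 0.454). Hist1h4h had the largest log2 fold change of all histone genes, 2.24 ± 0.67 (adjusted p = 0.0520), on low levels of 4.01, 1.36 and 7.35 CPM in MIZ1KO, against 0.963, 1.1, 0.883 and 0.538 CPM in Control. Hist1h4b and Hist1h4n followed at 1.62 ± 0.76 and 1.61 ± 0.66, neither called. Hist4h4, alone on chromosome 6, had -0.03 ± 0.56, and the sign of this value near 0 changed between fits.

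**Figure D3:**
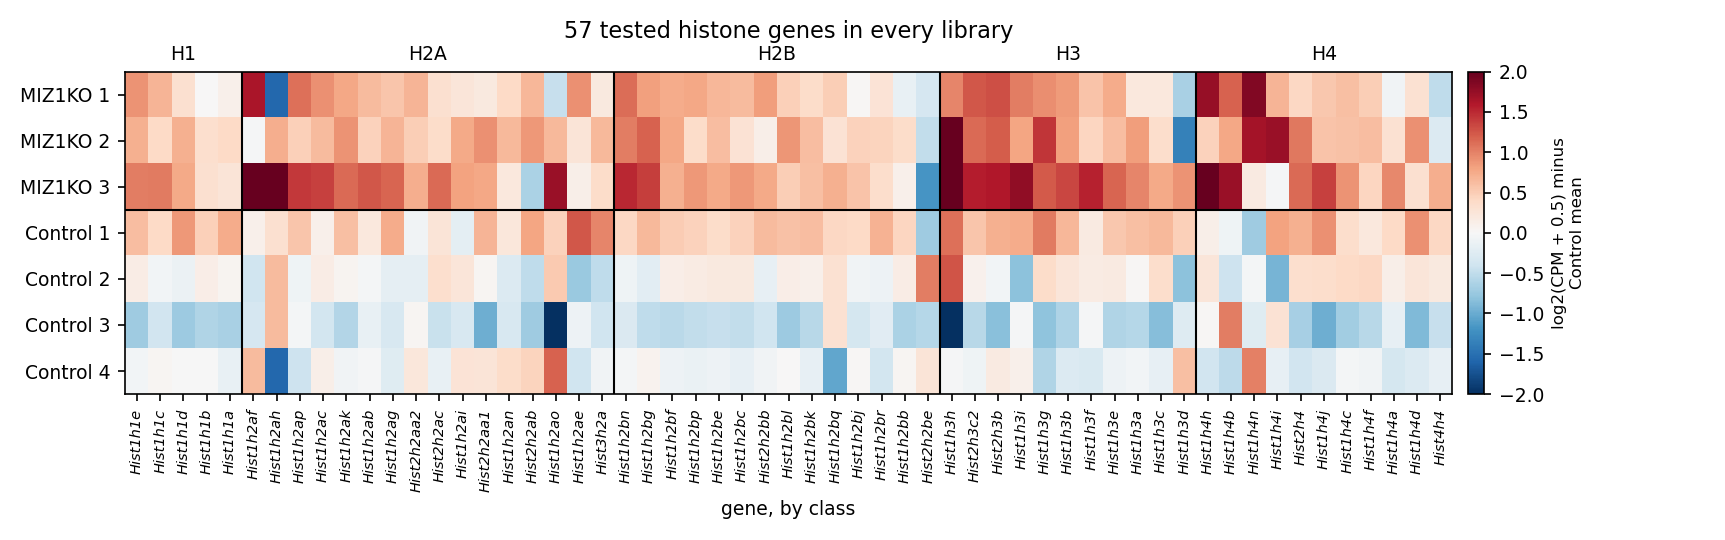
Level of each of the 57 tested histone genes (columns, by class and then by log2 fold change) in every library (rows), as log2(CPM + 0.5) minus the mean of the 4 Control libraries. Red is above and blue below that mean; Control 1 is the Control library with the most red cells and Control 3 the one with the most blue cells.

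GC content moved with these differences. Over the 9748 other protein-coding genes tested with a known GC content, the log2 fold change correlated with the GC content of the annotated transcripts (Pearson r = 0.40, Spearman rho = 0.46 across genes, which share their libraries). Histone genes are rich in GC, with a median of 57.9% over the 57 tested. Among genes with at least 60% GC, the median log2 fold change was 0.74 over 24 histone genes and 0.62 over 242 other protein-coding genes. In that bin 5 of the 24 histone genes were called higher, beside 9.92% of the others. Below 50% GC, the medians were 0.47 over 13 histone genes and -0.15 over 5132 others, between 50% and 55% they were 0.81 over 8 and 0.16 over 2632, and between 55% and 60% they were 0.62 over 12 and 0.42 over 1742. The histone median thus lay above that of the other genes in each bin, by least in the bin with the most GC. Whether GC content takes part in the histone result beyond these values was not tested.

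**Figure D4:**
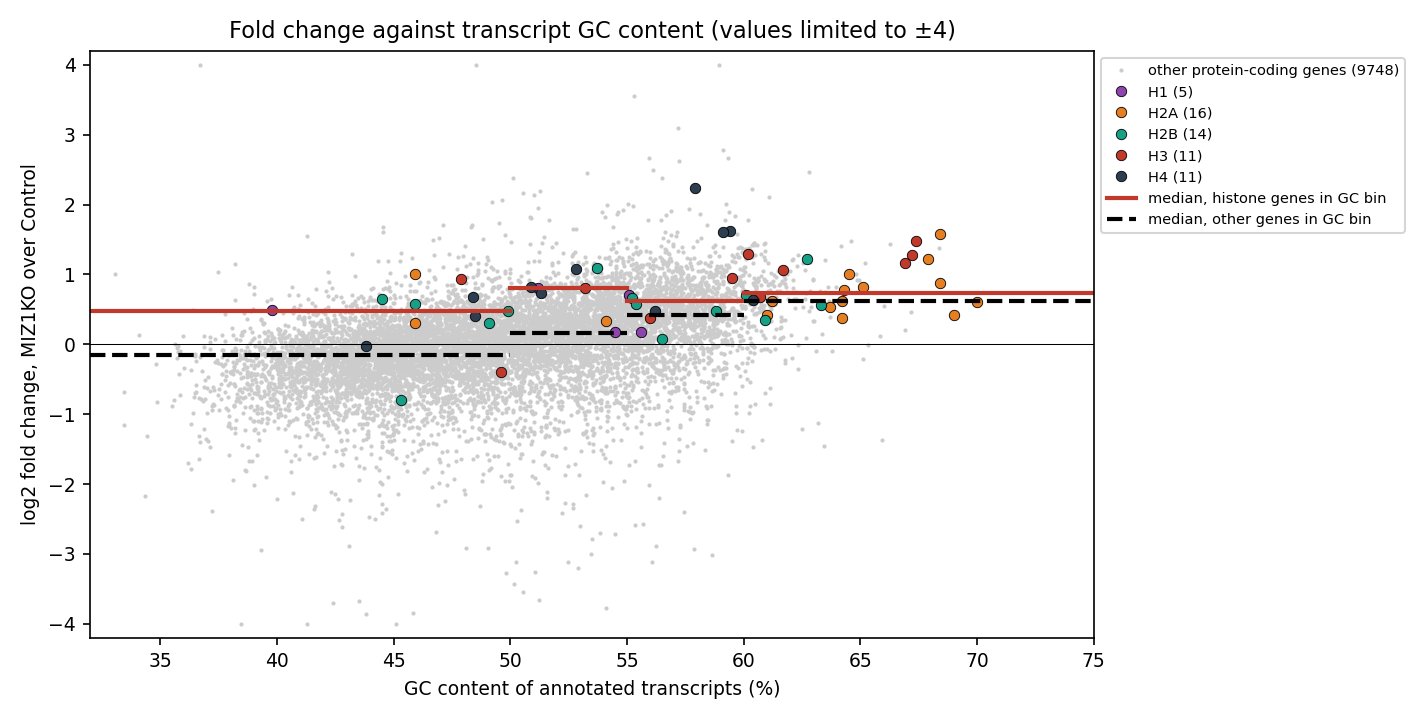
Log2 fold change of MIZ1KO over Control (vertical axis, values beyond 4 in either direction drawn at the edge) against the GC content of annotated transcripts, for 57 tested histone genes coloured by class and 9748 other protein-coding genes in grey. Red lines are the medians of the histone genes and dashed black lines those of the other genes within GC bins split at 50%, 55% and 60%; they are closest in the bin with the most GC.

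With the GC and length offsets the classes changed places. The H4 median was then 0.82, with all 11 tested H4 genes above 0, and the H3 median 0.55 with 10 of 11 above 0. The H1 median was 0.47, the H2B median 0.35, and the H2A median 0.09 with 10 of 16 above 0. The H2A genes had the highest median GC content of the classes, 64.3%. Hist1h2ak, called in the fit without offsets, had 0.03 ± 0.16 (adjusted p = 0.928) with them, Hist1h2bn 0.62 ± 0.2 (adjusted p = 0.0951) and Hist2h3b 0.51 ± 0.18 (adjusted p = 0.114). The calls of Hist1h2ap and Hist1h3b were lost with the offsets as well. The 5 genes called with the offsets were Hist1h2bg at 0.96 ± 0.19, Hist1h2ac at 1.20 ± 0.28, Hist2h3c2 at 0.84 ± 0.19, Hist1h1e and Hist1h2be at 0.89 ± 0.21. The models of Hist1h1e and Hist1h2be overlap on the same strand, so reads of these genes may be shared.

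Other library quantities also varied between the libraries, not all in the direction of the histone share. Models of the class TEC, unspliced transcripts that await experimental evidence, took 0.544%, 0.603% and 0.923% of the non-ribosomal counts in MIZ1KO, against 1.02%, 1.62%, 2.58% and 1.95% in Control. Among the Control libraries, the one with the least TEC, replicate 1, had the most histone counts, and the one with the most TEC, replicate 3, had the fewest; in MIZ1KO replicate 3 was highest in both. The 7 T cell markers summed to 42.0 to 47.7 CPM in MIZ1KO and 25.8 to 32.7 CPM in Control, with 7 of 7 detected. Most of this was Lck, at 35.5 CPM in MIZ1KO and 29.5 CPM in Control. Cd3e averaged 4.03 CPM in MIZ1KO (0.643, 3.09 and 8.35) and 0.139 CPM in Control. Trac averaged 1.47 CPM in MIZ1KO (0.214, 1.3 and 2.89) and 0.0715 CPM in Control. Neither Cd3e nor Trac passed the filter on low counts, and both were highest in MIZ1KO replicate 3. Summed markers of myeloid cells ranged from 4.19 to 22.4 CPM in MIZ1KO and 4.97 to 9.97 CPM in Control. The part of these quantities in the histone result was not tested.

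Because the libraries are labelled polyA RNA and most histone mRNAs lack the tail, other RNAs without one were set beside them. Ribosomal RNA took 46.4% to 56.1% of all counts, so the label does not show how far RNAs without a tail were removed. The RNA polymerase III transcript Rn7sk had 41.2, 30.0 and 113 counts per 1000000 non-ribosomal counts in MIZ1KO, against 9.38, 13.7, 24.5 and 69.6 in Control, with overlap. Rmrp and Rpph1, the RNAs of the nucleases RNase MRP and RNase P, overlapped as well, with means of 31.9 in MIZ1KO and 20.6 in Control for Rmrp, and 33.2 in MIZ1KO and 24.3 in Control for Rpph1. The telomerase RNA Terc had 12.8, 17.5 and 15.5 in MIZ1KO, against 11.4, 8.27, 4.1 and 8.33 in Control, without overlap, and was not called (adjusted p = 0.194). Rn7s1 and Rn7s2, near-identical genes of the signal recognition particle RNA, went in opposite directions. Rn7s1 had 45.0, 55.4 and 111 in MIZ1KO, against 0, 0, 90.8 and 0 in Control, and Rn7s2 had 0, 27.8 and 0 in MIZ1KO, against 53.3, 77.7, 0 and 137 in Control. How reads were split between these copies is not known. Models of small nucleolar RNA took 0.00144% ± 0.000466 in MIZ1KO (± SD over 3 libraries) and 0.00187% ± 0.000609 in Control (± SD over 4). Of the 6 single genes named here, all tested, 0 were called in either direction. Of 13 such RNAs listed, these 6 alone passed the filter on low counts. Their log2 fold changes lay above 0 in 5 of 6, against 47.7% of all genes. The median was 0.77, beside 0.66 over the tested histone genes, and includes Rn7s1 at 1.77 ± 1.52 and Rn7s2 at -2.68 ± 1.59. Models of small nuclear RNA took 0.000202% ± 0.000185 in MIZ1KO and 0.000433% ± 0.000225 in Control, with overlap. Those of small Cajal body RNA, at 0.00106% ± 0.000208 in MIZ1KO and 0.000758% ± 0.000292 in Control, lay the other way with overlap. Whether these RNAs and the histone mRNAs differ between the groups for a common reason was not tested.

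The annotated 3′ ends differ among the histone genes. In 21 genes the model runs more than 100 bases past the stem-loop, and in 21 it ends near it. Of the genes that run on, 18 were tested, 3 were higher and the median was 0.72. Of those that end near the stem-loop, 19 were tested, 2 were higher and the median was 0.66. Hist1h3e had 0.81 ± 0.26, Hist1h3f 0.94 ± 0.35, Hist1h4c 0.67 ± 0.31 and Hist1h4i 1.08 ± 0.59 on the log2 scale, with models that run 369, 365, 454 and 330 bases past the stem-loop, and were not called. Among the other models that run on are those of Hist4h4, Hist3h2a and Hist2h4, with 2445, 1643 and 1257 bases after the stem-loop, and Hist1h1d with 4884. On the log2 scale Hist2h4 had 0.82 ± 0.33, Hist1h1d 0.49 ± 0.28 and Hist3h2a 0.30 ± 0.38, none called. An AATAAA signal, the usual mark for cleavage and polyadenylation, stood in the annotated 3′ UTR of 18 genes. Of the 15 tested, 1 was higher, Hist1h2ac, and the median was 0.49 at a median GC content of 49.1%. Of the 42 tested without the signal, 7 were higher and the median was 0.74 at a median GC content of 60.5%. The deposited counts are per gene, so reads from transcripts ending at the stem-loop and from longer ones cannot be told apart.

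Near-identical sequence limits how far single genes can be read. Of the 448 histone values, 82.6% were not whole numbers, against 16.2% of the values of all genes with counts (tolerance 1e-06). Of all stretches of 50 bases in a histone gene's transcripts, a median of 49.0% occurred in no other gene. In 32 genes this share was under 50%; 28 of these were tested, 6 were higher and the median log2 fold change was 0.81. Of the 29 tested genes with a share of 50% or more, 2 were higher, Hist1h2ac and Hist1h2bg, and the median was 0.62. Sums over a class or a cluster are less exposed to how reads were split between copies. Models of other genes overlap 23 of the 64, for the most part short models of the miRNA class on the strand opposite H2A genes.

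Many H2A and H2B genes are transcribed away from each other from a shared promoter. Within the histone genes, 11 such neighbours on opposite strands lay 176 to 302 bases apart, each an H2A and an H2B gene. Hist1h2ak and Hist1h2bn, 296 bases apart, were the pair with both genes called, at 0.88 ± 0.24 and 1.22 ± 0.24. Hist1h2ap at 1.01 ± 0.27 faces Hist1h2br at 0.30 ± 0.27, Hist1h2ac at 1.00 ± 0.28 faces Hist1h2bc at 0.58 ± 0.28, and Hist1h2bg at 1.09 ± 0.25 faces Hist1h2ae at 0.33 ± 0.59. Differences within these pairs were not tested.

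Promoters of 58 of the 64 genes were matched in RefSeq (GRCm38.p6), from 250 bases before to 50 after the start. On either strand, the letters TATAAA stood in 58.6% of them, against 14.2% of all 27025 promoters of that length, and CCAAT in 84.5% against 37.9%. CCAAT was found in all matched promoters of H1, H2A, H2B and H3 and in 3 of 12 of H4. ATTTGCAT, the octamer that H2B promoters are known for and that the B cell factor OCT2 binds, stood in 19.0%, against 1.75% of all promoters: in 6 of 16 of H2A, 5 of 14 of H2B and 0 of the other classes. None of these motifs contains another. The 200 bases before the start are shown for the divergent pair that was called on both sides, for the pair of Hist2h2ac and Hist2h2be, and for Hist2h3b. Capitals mark the letters found on either strand:
Hist1h2bn, chr13:21753876-21754075, plus strand: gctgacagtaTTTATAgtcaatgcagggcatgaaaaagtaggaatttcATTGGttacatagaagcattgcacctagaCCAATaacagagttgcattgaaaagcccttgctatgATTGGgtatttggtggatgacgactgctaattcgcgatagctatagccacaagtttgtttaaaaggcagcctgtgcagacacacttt
Hist2h2ac, chr3:96220881-96221080, minus strand: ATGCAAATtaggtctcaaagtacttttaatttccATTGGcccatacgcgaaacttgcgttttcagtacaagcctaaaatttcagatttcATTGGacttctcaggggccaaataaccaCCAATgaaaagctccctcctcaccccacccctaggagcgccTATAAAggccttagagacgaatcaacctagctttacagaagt
Hist2h3b, chr3:96268454-96268653, plus strand: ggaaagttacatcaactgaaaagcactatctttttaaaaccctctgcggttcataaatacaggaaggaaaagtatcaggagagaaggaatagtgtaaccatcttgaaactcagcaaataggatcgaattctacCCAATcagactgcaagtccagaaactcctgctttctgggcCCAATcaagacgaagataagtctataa
A match is a description of these letters, not a measured binding site.

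Of 28 factors that make and process histone mRNA, 1 was higher, 0 were lower and the median was 0.20. This count, like those of the 3 lists that follow, stands beside 1.9% of all genes called higher and 4.05% called lower. Cstf1, a subunit of the cleavage stimulation factor, had 32.9 CPM in MIZ1KO and 15.8 CPM in Control, a log2 fold change of 1.06 ± 0.25 (adjusted p = 0.0229), which missed the threshold with the GC and length offsets (adjusted p = 0.06). Slbp, which encodes the stem-loop binding protein, was measured at 83.0, 98.3 and 73.5 CPM in MIZ1KO, against 131, 120.0, 90.9 and 88.8 CPM in Control, with overlap and -0.34 ± 0.21 (adjusted p = 0.330). Npat, the cofactor that switches on histone genes at the start of S phase, had 0.10 ± 0.20, and Lsm11, a subunit of the U7 particle, 1.45 ± 0.58 (adjusted p = 0.134). Lsm11 had 4.61, 16.5 and 2.41 CPM in MIZ1KO, against 4.97, 1.24, 3.41 and 2.4 CPM in Control. The groups overlapped, and MIZ1KO replicate 2 alone stood high. Lsm10, another factor of this list, had 0.19 ± 0.41.

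Replication-independent variants, which are made outside S phase as well, had 1 of 11 tested genes higher, 0 lower and a median of -0.21. H2afx, which encodes the variant phosphorylated at DNA breaks, had 394 CPM in MIZ1KO and 182 CPM in Control. The groups did not overlap and the log2 fold change was 1.12 ± 0.22 (adjusted p = 0.0140); with the GC and length offsets it was 0.53 and missed the threshold (adjusted p = 0.0754). As background, H2afx is known to give both a stem-loop mRNA and a polyadenylated one. H2afz had 867 CPM in MIZ1KO and 1320.0 CPM in Control, at -0.61 ± 0.33, and H3f3a had 529 CPM in MIZ1KO and 788 CPM in Control, at -0.57 ± 0.34, neither called. Cenpa, the centromeric H3, had -0.75 ± 0.22 (adjusted p = 0.0558).

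The histone chaperones, which carry histones to DNA, had 1 of 27 tested genes higher, 0 lower and a median of 0.15. Ubn1, a subunit of the HIRA complex, had 0.79 ± 0.23 (adjusted p = 0.0490), a call that 9 of the 12 other settings did not make. Of 48 S phase genes, 3 were higher, 1 was lower and the median was 0.22. Higher were Mcm5 of the replicative helicase at 0.82 ± 0.19 (adjusted p = 0.0220), Pold1 of DNA polymerase delta at 0.89 ± 0.21 (adjusted p = 0.0220) and the replication-coupled methylation cofactor Uhrf1 at 0.77 ± 0.19 (adjusted p = 0.0270). Lower was Tk1, thymidine kinase, at -0.82 ± 0.23 (adjusted p = 0.0456). With the GC and length offsets the 3 higher calls were lost. The S phase genes summed to 0.697%, 0.668% and 0.683% of the non-ribosomal counts in MIZ1KO, against 0.605%, 0.579%, 0.569% and 0.562% in Control. Histone counts per S phase count were 0.743, 0.804 and 0.917 in MIZ1KO, against 0.762, 0.612, 0.438 and 0.61 in Control, and the groups overlapped through Control replicate 1.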

How the data were processed

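RNA from sorted cells of 7 samples was sequenced in bulk. The authors deposited a table of expected counts, which are estimated reads per gene without normalization. They also deposited log2 values whose file is named for a variance-stabilising step. The submitters' processing notes name STAR 2.5.2, RSEM 1.3.0, DESeq2 1.18.1, R 3.4.3 and the build GRCm38 without saying what each did. The sources used here do not give the annotation, whether strand was kept or how reads matching more than 1 gene were shared out. These choices bear on near-identical histone genes.

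Of 48795 identifiers, 48435 matched a GENCODE vM21 gene and 360 did not. Counts were rounded, filtered with filterByExpr and scaled by TMM. Groups were compared with edgeR 4.0.16 in R 4.3.3 (quasi-likelihood F-test, the newer fit, robust, two-sided), with Benjamini-Hochberg adjustment over 11618 genes and a threshold of 0.05. Each SE is the log2 fold change over the root of its F statistic. Sums, shares, medians and correlations across genes are descriptions without a test. The alternatives were the legacy fit, DESeq2 1.42.0, limma 3.58.1 (voom), other scalings, filters and gene classes, GC and length offsets, a replicate block, the deposited log2 values and leaving out each library. Depth was 3087992 to 5085019 counts per library outside ribosomal RNA. No pair of libraries within a group agreed within sampling noise.

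The symbol rule for the histone genes and the other lists were set with earlier results of these data known. Named were Zbtb17, every histone gene past the threshold, the 10 with the highest mean CPM, the highest of each class, the 4 largest log2 fold changes in either direction, genes whose models run more than 100 bases past a stem-loop, and, among processing factors, variants, chaperones and S phase genes, the genes past the threshold or else the 3 with the smallest p. Other genes were named after their values were seen. Hist1h2bh and Hist1h2bm were not analysed here.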

Additional observations from a re-analysis of the deposited data

Results flagged for a closer look

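In 4 of 94 sets of the 4 Control libraries, 1 library stood far from the other 3 (its gap to the next one, over the whole range, exceeded Dixon's 95% limit), where chance alone gives about 5%. Hist1h2ac had 9.66 CPM in Control replicate 3 and 13.6 to 14.0 CPM in the others. Hist1h2ag had 18.6 CPM in Control replicate 1 and 8.7 to 9.66 CPM in the others. Hist1h2bq had 1.35 CPM in Control replicate 4 and 4.18 to 4.55 CPM in the others. Zbtb17 had 7.0 CPM in Control replicate 4 and 3.14 to 3.42 CPM in the others.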

How the results depend on the processing

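No histone gene was called lower in any of the 19 alternative fits, and the median over the tested histone genes stayed above 0, between 0.29 and 0.86. The number called higher, 8 in the reported fit, was 14 with DESeq2, 5 with limma-voom and 5 with GC and length offsets, 3 of them shared with the reported 8. Leaving out 1 library gave 0 to 21. Over all genes, 692 calls (221 higher, 471 lower) became 1120 with DESeq2 (423 higher), 342 with limma-voom (127 and 215), 315 with protein-coding genes only (140 and 175), 294 with the offsets (128 and 166) and 38 to 1346 without 1 library (21 to 520 higher, 17 to 826 lower). The log2 ratio of summed histone counts stayed between 0.54 and 0.83 without 1 library; for H3 it was 0.91 to 1.26, and for H4 0.39 to 0.83.

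Replicate numbers are not said to pair samples, and deviations of same-numbered libraries correlated with r of 0.0233, 0.0665 and 0.162. Values from so few libraries cannot tell whether the numbers mark pairs. With the replicate block, 4 histone genes and 131 genes higher over all were called; with the block and the offsets, 1 and 35 (96 in all, 61 lower).

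Of the histone mRNA processing factors, 2 were called with DESeq2, 0 with the offsets with or without the block and 0 to 2 without 1 library. Of the variants, 3 were called with DESeq2, 2 with upper-quartile scaling, 0 with block and offsets and 0 to 4 without 1 library. Of the chaperones, 0 were called with the legacy fit, limma-voom, library totals, upper-quartile scaling, no filter, protein-coding genes only or the block with or without offsets, and 0 to 4 without 1 library. Of the S phase genes, 10 were called with DESeq2, 2 with the offsets, 2 with the block, 1 with both and 0 to 8 without 1 library.

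The histone genes that changed sign were uncalled before and after. With the offsets 11 did (10 turned below 0, 6 of them H2A genes), with the offsets and the block 8, and without MIZ1KO replicate 3 Hist1h2ah (-0.16, against 1.22) and Hist1h2ao (-0.32, against 0.38). Among the genes named by rule, the values with the offsets, without and with the block, were Hist1h1b (-0.05, -0.02), Hist1h2bb (-0.22, -0.17), Hist1h2bl (-0.03, -0.00), Hist4h4 (0.24, 0.19) and Zbtb17 (-0.47, -0.04). Hist4h4 was 0.04 with the legacy fit, 0.07 with DESeq2, 0.01 without a filter, without ribosomal RNA and with the deposited log2 values, and -0.5 to 0.29 without 1 library. Without 1 library, Hist1h2bb reached -0.05 and -0.02, Hist1h3d ranged from -1.31 to 0.13 and Zbtb17 from -0.09 to 0.52; Zbtb17 was -0.00 with protein-coding genes only. Without a filter the median of all genes moved to -0.141, against -0.03. The cause of these changes was not tested. Counts of 3087992 to 5085019 per library limit the genes under 5 CPM, of which 15 were tested and 0 called.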
